A study of Mus musculus with 18 samples.

Results

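Clade B serpins are intracellular protease inhibitors, and the 10 described here are Serpinb3a, Serpinb3b, Serpinb3c, Serpinb3d, Serpinb12, Serpinb2, Serpinb5, Serpinb7, Serpinb8 and Serpinb13, which lie together on mouse chromosome 1. They were found by matching the Ensembl gene IDs of the count files to GENCODE M21 symbols, and make up 10 of the 41605 gene IDs in the files. The members were selected on their gene family and on the fold changes between these same groups, which were already known, so their own levels and fold changes are given as a description, with no p-value for any of them, and calls among them are only counted beside those over all genes. RNA was sequenced from the skin of C57BL/6 mice aged 8-12 weeks in 3 groups of 6 libraries: skin treated with Detergent B, skin treated with Detergent A, and skin treated with PBS, the phosphate-buffered saline control. No mutation, transgene or further agent is named for any group. The labels give neither the identity, dose nor duration of the detergents, nor the body site, and do not say whether each library came from its own animal, so the spread behind each p-value is that between libraries and may be technical.

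Serpins inhibit proteases by presenting an exposed reactive loop that the protease cuts, after which the protease is trapped in a covalent complex with the distorted serpin. Clade B members lack a classical secretion signal and act mainly inside cells, and many are made by squamous epithelia such as the epidermis. There they face the cathepsins and serine proteases that are active as keratinocytes mature and are shed, and in human skin the loss of SERPINB7 or SERPINB8 gives inherited disorders of cornification or peeling.

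Levels are given as CPM, read counts relative to library sizes scaled by TMM, and 8 of the 10 genes passed the filter on low counts, Serpinb3c and Serpinb3d being the 2 that did not. Total counts per library were between 17312623 and 29599018. Markers of keratinocytes, the cell type that defines epidermis, were present in every group: the summed CPM of 5 keratinocyte genes ranged from 26324 to 45950 in Detergent B libraries, from 20108 to 50722 in Detergent A libraries and from 15006 to 29400 in PBS libraries. The summed CPM of 14 hair shaft genes ranged from 14.2 to 3885 in Detergent B libraries, from 4.74 to 4870 in Detergent A libraries and from 152.5 to 6827 in PBS libraries. PBS replicate 6, at 152.5 CPM, stood apart from the other 5 PBS libraries, which were all at 3911 CPM or more, and it also had the highest keratinocyte sum of its group. In bulk skin, fewer cells of a type and less RNA per cell cannot be told apart.

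The 10 genes spanned 749 kb of chromosome 1, from 106861173 to 107610484 in GRCm38, in the order Serpinb5, Serpinb12, Serpinb13, Serpinb3a, Serpinb3d, Serpinb3b, Serpinb3c, Serpinb7, Serpinb2 and Serpinb8. The 4 Serpinb3 genes lie on the minus strand and the other 6 on the plus strand. The coding sequence of Serpinb3a was 92.9% identical to that of Serpinb3b, 91.3% to that of Serpinb3c and 89.4% to that of Serpinb3d, whereas pairs that involved a gene outside the Serpinb3 group were 51.3% to 62.4% identical. Of all 75-base windows of their transcripts, 0.2% for Serpinb3a, 2.3% for Serpinb3b and 2.1% for Serpinb3c occurred in another serpin gene. Serpinb2 shared 9.0% of its windows with Serpinb10, with which 12.4% of its exonic bases overlap on the same strand. Reads from such stretches could have been counted for either gene, and the values of these genes are uncertain to that extent.

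Promoter sequences, the 250 bases before the RefSeq transcription start in GRCm38.p6, were at hand for 9 of the 10 genes. The first 3 of the following are shown because Serpinb3a, Serpinb3b and Serpinb3c have similar promoters but different levels in skin, and the last 2 because Serpinb12 and Serpinb5 were the genes whose Detergent B libraries all lay above all PBS libraries. They cover chr1:107052304-107052553 (minus strand) for Serpinb3a, chr1:107161115-107161364 (minus strand) for Serpinb3b, chr1:107278372-107278621 (minus strand) for Serpinb3c, chr1:106934199-106934448 (plus strand) for Serpinb12 and chr1:106860925-106861174 (plus strand) for Serpinb5. The start used for Serpinb3b lies 117247 bases from the 5′ end of its GENCODE gene, whose span runs over Serpinb3c. Counts of Serpinb3b therefore cannot be assigned to this start alone. Capitals mark matches, on either strand, to the AP-1 motif TGANTCA or the TATA box motif TATAAA, all written 5′ to 3′ on the strand of the gene.
Serpinb3a: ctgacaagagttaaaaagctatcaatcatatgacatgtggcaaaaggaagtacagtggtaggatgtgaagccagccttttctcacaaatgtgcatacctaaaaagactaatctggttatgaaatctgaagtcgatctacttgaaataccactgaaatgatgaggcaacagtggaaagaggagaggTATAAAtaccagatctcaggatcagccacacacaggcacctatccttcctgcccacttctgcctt
Serpinb3b: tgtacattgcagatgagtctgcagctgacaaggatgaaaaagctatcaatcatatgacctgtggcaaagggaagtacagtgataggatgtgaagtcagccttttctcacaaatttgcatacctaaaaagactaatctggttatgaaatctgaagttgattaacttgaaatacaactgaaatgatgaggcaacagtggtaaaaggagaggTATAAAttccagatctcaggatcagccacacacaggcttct
Serpinb3c: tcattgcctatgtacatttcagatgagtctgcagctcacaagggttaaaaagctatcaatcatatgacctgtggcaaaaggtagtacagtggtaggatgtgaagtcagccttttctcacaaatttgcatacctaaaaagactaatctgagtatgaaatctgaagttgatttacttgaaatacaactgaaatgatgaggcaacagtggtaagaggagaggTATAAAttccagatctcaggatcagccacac
Serpinb12: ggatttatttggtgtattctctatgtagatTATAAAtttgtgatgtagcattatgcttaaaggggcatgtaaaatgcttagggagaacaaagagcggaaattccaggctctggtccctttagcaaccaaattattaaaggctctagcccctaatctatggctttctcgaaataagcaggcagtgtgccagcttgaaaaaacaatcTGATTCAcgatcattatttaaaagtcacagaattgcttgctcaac
Serpinb5: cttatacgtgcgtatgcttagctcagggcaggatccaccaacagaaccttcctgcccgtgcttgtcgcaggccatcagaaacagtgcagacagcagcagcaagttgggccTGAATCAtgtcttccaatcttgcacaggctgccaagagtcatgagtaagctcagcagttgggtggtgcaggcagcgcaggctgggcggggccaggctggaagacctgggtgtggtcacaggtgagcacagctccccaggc

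A TATAAA match, read on either strand, was present in 7 of the 9 promoters, against 12.3% of the 32536 promoters of the RefSeq table cut to the same length. It began 65 bases before the start in Serpinb3a, 41 bases in Serpinb3b, 31 bases in Serpinb3c and 29 bases in Serpinb2, but 220 bases before it in Serpinb12. In Serpinb3d (40 bases) and Serpinb7 (33 and 239 bases) the match was on the opposite strand, as TTTATA. The promoters of Serpinb3a, Serpinb3b and Serpinb3c were 71.5% to 88.1% identical, so their 3 matches are not separate cases, and no enrichment is read from the count. TGANTCA was present in 5 of the 9, against 6.7% of all promoters, and none of the 4 Serpinb3 promoters held it. The match began 45 bases before the start in both Serpinb12 and Serpinb7, 23 bases in Serpinb8, 94 bases in Serpinb2 and 140 bases in Serpinb5. The STAT3 motif TTCNNNGAA was in 0 of the 9, against 7.0% of all promoters, and the STAT6 motif TTCNNNNGAA was in 1, that of Serpinb7, against 5.9%. The start used for Serpinb7 lies 23034 bases from the 5′ end of its GENCODE gene, and its matches belong to that start. The Serpinb3b promoter was 88.1% identical to that of Serpinb3c and 77.0% to that of Serpinb3a. These matches describe the letters of the windows and are not measured binding sites.

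On a scale of CPM per kilobase of exons, which sets levels between genes by the length of all annotated exons, Serpinb5 had the highest mean of the 10 in every group. It averaged 273.8 CPM per kb in Detergent B libraries, 281.9 in Detergent A libraries and 206.7 in PBS libraries. Serpinb2 came second in each group, at 100.5, 118.6 and 72.6 CPM per kb in Detergent B, Detergent A and PBS libraries, and Serpinb7 came next, at 71.6, 63.7 and 49.6 CPM per kb. The ranges of Serpinb5 and Serpinb2 did not overlap in Detergent B or PBS libraries but did in Detergent A libraries, and those of Serpinb2 and Serpinb7 overlapped in all 3 groups. Serpinb12 stood above Serpinb8 in both detergent groups and below it in PBS, where Serpinb12 had 18.7 and Serpinb8 had 26.6 CPM per kb, with overlapping ranges in each group. Likewise Serpinb3a had a higher mean than Serpinb13 in both detergent groups and a lower one in PBS, again with overlapping ranges. The order of Serpinb12 and Serpinb8 depends on their annotated exon lengths, 2498 and 4795 bases. In CPM, Serpinb12 had the lower mean in all 3 groups. It had 163.4, 115.4 and 46.8 CPM in Detergent B, Detergent A and PBS libraries, where Serpinb8 had 171.1, 164.3 and 127.4. Serpinb3b, at 13.8, 11.1 and 6.28 CPM per kb in Detergent B, Detergent A and PBS libraries, came sixth of the 10 in all groups.

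**Figure D1:**
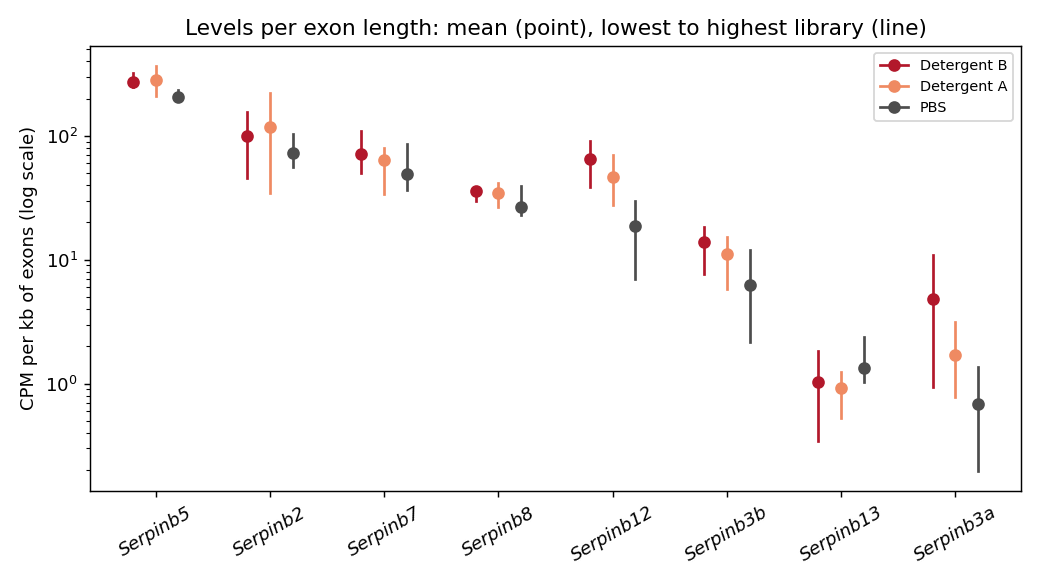
Levels of the 8 serpins that passed the filter, as CPM per kilobase of exons on a log axis, with Detergent B, Detergent A and PBS from left to right for each gene; points are means of 6 libraries and lines run from the lowest to the highest library. Serpinb5 has the highest mean in each group, at 273.8, 281.9 and 206.7 CPM per kb in Detergent B, Detergent A and PBS libraries.

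The 4 Serpinb3 genes are the mouse relatives of human SERPINB3 and SERPINB4, the squamous cell carcinoma antigens, which inhibit cathepsin L-like cysteine proteases and chymotrypsin-like serine proteases. Serpinb3a had the largest fold change of the 8 genes for Detergent B against PBS. It had a lowest, median and highest level of 1.54, 7.53 and 17.8 CPM in Detergent B libraries, of 1.27, 2.14 and 5.14 CPM in Detergent A libraries, and of 0.324, 1.09 and 2.24 CPM in PBS libraries. In 5 of 6 Detergent B libraries it was above the highest PBS library, and the exception was replicate 3, so the ranges overlapped. Its log2 fold change was 2.78 ± 0.55 (SE) for Detergent B against PBS, or 6.87-fold, and 1.29 ± 0.55 for Detergent A against PBS. Between the detergents the log2 difference was 1.49 ± 0.52, the widest of the 8 genes, and 4 of 6 Detergent B libraries lay above every Detergent A library.

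Serpinb3b was the more abundant of the pair. Its lowest, median and highest levels were 12.9, 23.8 and 31.2 CPM in Detergent B libraries, 9.84, 19.4 and 26.0 CPM in Detergent A libraries, and 3.66, 9.93 and 20.4 CPM in PBS libraries. The highest PBS value was that of replicate 6, and 4 of 6 Detergent B libraries and 3 of 6 Detergent A libraries were above it. The log2 fold change was 1.13 ± 0.33 for Detergent B and 0.82 ± 0.33 for Detergent A, each against PBS. Serpinb3a made up 22.5% ± 8.75 of the summed Serpinb3a and Serpinb3b CPM in Detergent B libraries, 12.1% ± 3.47 in Detergent A libraries and 9.56% ± 3.85 in PBS libraries (SD, n = 6 each), with ranges that overlapped between all groups. When the 4 Serpinb3 genes were summed into 1 before the fit, so that reads shared among them could not move between genes, the sum had a log2 fold change of 1.41 ± 0.36 for Detergent B and 0.88 ± 0.35 for Detergent A against PBS.

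Serpinb3c and Serpinb3d were barely detected. Serpinb3c had 14 counts over the 6 Detergent B libraries, 2 over the Detergent A libraries and 5 over the PBS libraries. Serpinb3d had 6 counts in Detergent B, 6 in Detergent A and 2 in PBS libraries. Neither gene entered the test, so no fold change is given. For Serpinb3c, 4 of 6 Detergent B libraries had more CPM than every Detergent A library and every PBS library, at no more than 6 counts in any library. Serpinb3b, whose promoter is 88.1% identical to that of Serpinb3c, had 2942 counts in the Detergent B libraries in which Serpinb3c had 14. Those 2942 counts cover the whole GENCODE gene, whose 5′ end, at 107278361, lies beside the Serpinb3c start at 107278371. They cannot be assigned to 1 of the 2 promoters.

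Serpinb12, whose human relative inhibits trypsin-like serine proteases, was the gene with the clearest separation between groups. Its lowest, median and highest levels were 97.2, 175.7 and 227.5 CPM in Detergent B libraries, 69.1, 106.4 and 176.4 CPM in Detergent A libraries, and 17.6, 47.0 and 74.2 CPM in PBS libraries. All 6 Detergent B libraries were above all 6 PBS libraries, and of the Detergent A libraries only replicate 1 was not. The log2 fold change was 1.80 ± 0.32, or 3.49-fold, for Detergent B against PBS and 1.30 ± 0.31, or 2.47-fold, for Detergent A against PBS. For Detergent B against Detergent A it was 0.50 ± 0.31, with overlapping ranges.

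Serpinb2, plasminogen activator inhibitor 2, blocks urokinase and tissue plasminogen activator. It had 107.4, 240.1 and 363.6 CPM as lowest, median and highest in Detergent B libraries, 81.2, 265.0 and 525.8 CPM in Detergent A libraries, and 132.6, 160.4 and 243.2 CPM in PBS libraries. Both detergent groups reached below the lowest and above the highest PBS library, and the coefficient of variation was 34.9% in Detergent B, 56.1% in Detergent A and 24.7% in PBS libraries. Its log2 fold change was 0.47 ± 0.33 for Detergent B and 0.71 ± 0.33 for Detergent A against PBS. It was 0.31 for Detergent B without replicate 1 of that group and 0.43 for Detergent A without replicate 4 of that group, the highest library of each. With Serpinb5, it was 1 of 2 genes whose mean was lower in Detergent B than in Detergent A.

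Serpinb5, or maspin, is an epithelial serpin without known protease-inhibiting activity. Its levels were 676.0, 736.5 and 886.6 CPM as lowest, median and highest in Detergent B libraries, 582.0, 795.6 and 1005 CPM in Detergent A libraries, and 522.4, 544.4 and 647.3 CPM in PBS libraries. All 6 Detergent B libraries and 4 of 6 Detergent A libraries were above the highest PBS library. The shift was small, with a log2 fold change of 0.41 ± 0.12 for Detergent B and 0.45 ± 0.12 for Detergent A against PBS, and of -0.04 ± 0.12 for Detergent B against Detergent A.

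Serpinb8 inhibits the proprotein convertase furin, and Serpinb7, or megsin, is the gene whose human relative is lost in a palmoplantar keratoderma. Serpinb8 had 142.4, 174.1 and 187.1 CPM as lowest, median and highest in Detergent B libraries, 127.1, 163.1 and 200.5 CPM in Detergent A libraries, and 110.5, 113.8 and 188.9 CPM in PBS libraries. Serpinb7 had 98.5, 135.2 and 216.3 CPM in Detergent B libraries, 66.3, 145.5 and 155.9 CPM in Detergent A libraries, and 71.3, 83.4 and 166.9 CPM in PBS libraries. For both genes the highest PBS value came from replicate 6. The other 5 PBS libraries reached at most 125.1 CPM for Serpinb8 and 102.1 CPM for Serpinb7, so all Detergent B and all Detergent A libraries were above those 5 for Serpinb8. Against PBS, the log2 fold change of Serpinb8 was 0.43 ± 0.14 for Detergent B and 0.37 ± 0.14 for Detergent A, and that of Serpinb7 was 0.53 ± 0.25 and 0.36 ± 0.25 for the same 2 comparisons. Without PBS replicate 6 the values for Serpinb7 were 0.76 ± 0.23 and 0.59 ± 0.23.

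Serpinb13, or hurpin, an inhibitor of cathepsins L and K, was the only one of the 8 with negative fold changes against PBS. It had 0.572, 1.73 and 3.07 CPM as lowest, median and highest in Detergent B libraries, 0.888, 1.48 and 2.09 CPM in Detergent A libraries, and 1.72, 1.88 and 3.97 CPM in PBS libraries. The ranges overlapped in every comparison, and the highest PBS value was again that of replicate 6. The log2 fold change was -0.38 ± 0.33 for Detergent B and -0.55 ± 0.33 for Detergent A, each against PBS. Without PBS replicate 6 these were -0.15 ± 0.32 and -0.32 ± 0.32, and for Detergent B the value was -0.19 without Detergent B replicate 1 and -0.60 without Detergent B replicate 4.

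**Figure D2:**
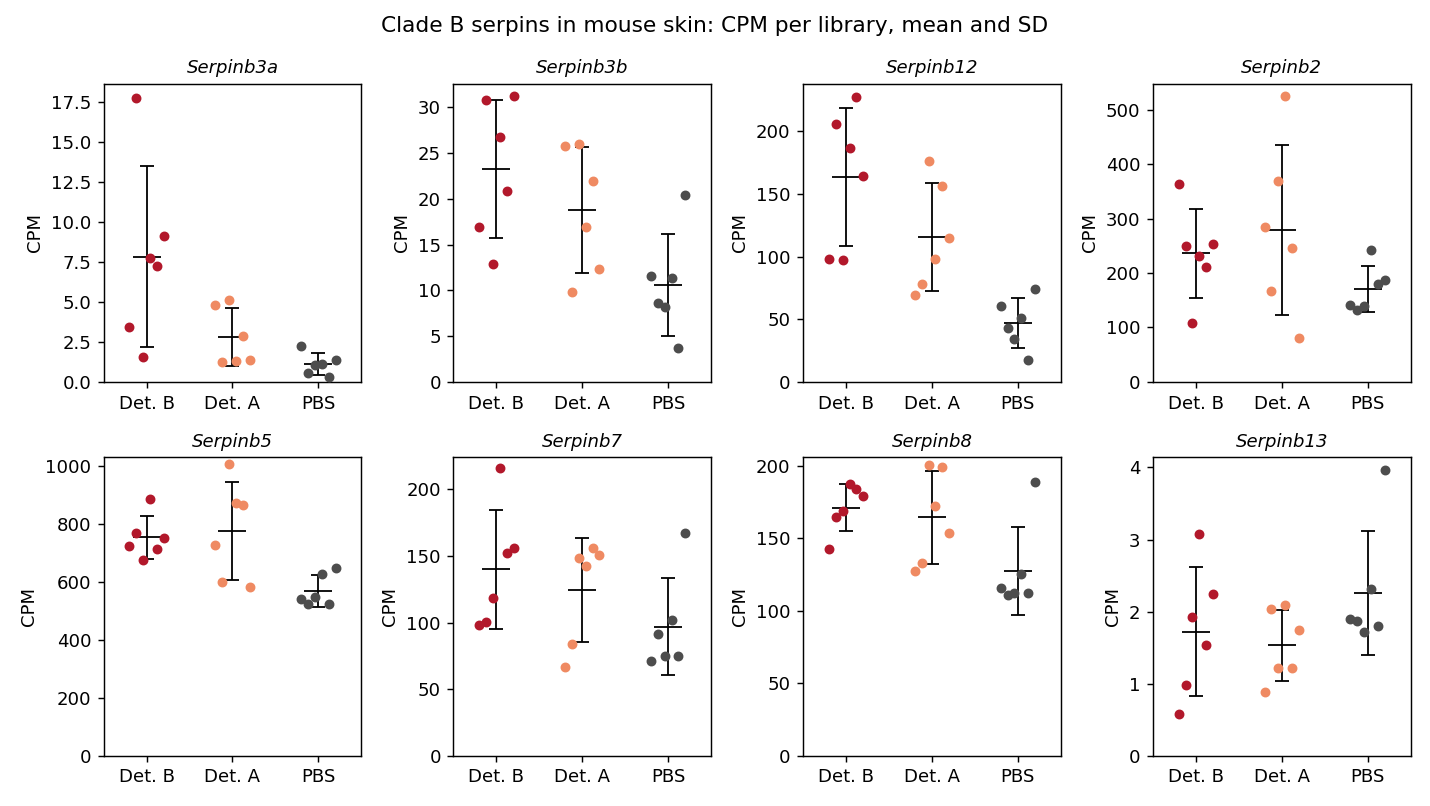
CPM of the 8 serpins in each of the 18 libraries (points), with Detergent B, Detergent A and PBS from left to right; the horizontal mark is the mean and the bar 1 SD of 6 libraries, and each panel has its own linear axis from 0. For Serpinb12 and Serpinb5 all 6 Detergent B libraries lie above all 6 PBS libraries, and the highest PBS point of Serpinb7, Serpinb8 and Serpinb13 is replicate 6.

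Calls were made with edgeR's quasi-likelihood test, with Benjamini-Hochberg adjustment over the 16836 genes tested and a threshold of 0.05. For Detergent B against PBS, 2 of the 8 genes tested were called higher, Serpinb3a and Serpinb12, beside 1.97% of all genes, and 0 were called lower, beside 1.08% of all genes. For Detergent A against PBS, 0 were called in either direction, beside 0.0535% of all genes called higher and 0.137% called lower. For Detergent B against Detergent A, 0 were called, beside 0% of all genes in either direction. Libraries of Detergent B lay all above those of PBS for 2 genes, beside 1.72% of all genes, and those of Detergent A for 0 genes, beside 0.404% of all genes. Because these contrasts chose the genes, nothing is read from these counts, nor from the signs and median fold changes that follow. The fold change against PBS was positive for 7 of 8 genes with each detergent, and the median log2 fold change was 0.50 for Detergent B and 0.58 for Detergent A, beside -0.008 and -0.009 over all genes. The 2 detergents were compared with the same PBS libraries, so their values are not independent of each other.

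Those counts moved with single libraries. PBS replicate 6 had the highest PBS level for 6 of the 8 genes, and without it 6 of 8 were called higher for Detergent B, beside 6.83% of all genes, namely Serpinb3a, Serpinb3b, Serpinb12, Serpinb5, Serpinb7 and Serpinb8. Without it 4 of 8 were called higher for Detergent A, beside 3.34% of all genes, namely Serpinb3b, Serpinb12, Serpinb5 and Serpinb8. Without Detergent A replicate 2 or 6 the count for Detergent A was 2, Serpinb12 and Serpinb5, beside 504 and 475 genes called higher in the whole table. The log2 fold change of Serpinb12 without PBS replicate 6 was 1.98 ± 0.33 for Detergent B and 1.48 ± 0.33 for Detergent A against PBS. The call of Serpinb3a for Detergent B was absent without PBS replicate 2 (log2 fold change 2.64), 3 (2.77) or 5 (2.59) and without Detergent B replicate 2 (2.36), fits in which 27, 24, 65 and 78 genes of the whole table were called higher. Detergent B replicate 3 was the lowest library of its group for 5 of the 8 genes and had the highest hair shaft sum of that group, 3885 CPM. The other groups differed in this. PBS replicate 1 had the highest sum of its group, 6827 CPM, and was the lowest library for 1 of the 8 genes. Detergent A replicate 2 had the highest of its group, 4870 CPM, and was lowest for 2 genes. Detergent A replicate 1, at 2293 CPM, was lowest for 4.

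The group means of the hair shaft sum ran opposite to most of the serpins. They were 1085 CPM in Detergent B and 1445 CPM in Detergent A libraries against 4359 CPM in PBS libraries. The ranges of the sum overlapped between the groups, and 0 of its 14 genes were called for either detergent. With the hair shaft score of each library as a covariate, 0 of the 8 genes were called for either detergent, and 5 genes were called for Detergent B against PBS over the whole table. In that fit the log2 fold change of Serpinb12 was 1.30 ± 0.30 for Detergent B and 0.83 ± 0.28 for Detergent A against PBS, and that of Serpinb3a was 2.24 ± 0.68 and 0.86 ± 0.64. For Serpinb3b it was 0.73 ± 0.33 for Detergent B and 0.44 ± 0.32 for Detergent A, for Serpinb5 0.22 ± 0.11 and 0.24 ± 0.11, and for Serpinb8 0.20 ± 0.11 and 0.12 ± 0.11. Those of Serpinb7, at 0.17 ± 0.22 for Detergent B and -0.02 ± 0.22 for Detergent A, and of Serpinb2, at 0.12 ± 0.35 and 0.25 ± 0.37, were smaller than their standard errors. Serpinb13, at -0.54 ± 0.36 for Detergent B and -0.70 ± 0.35 for Detergent A, was further below 0 than without the covariate. The keratinocyte sum also had a higher mean in the detergent groups. It was 39128 ± 7827 CPM in Detergent B, 34122 ± 11319 CPM in Detergent A and 21697 ± 4983 CPM in PBS libraries (SD, n = 6 each). Of its 5 genes, 1 was called for Detergent B and 0 for Detergent A. Trp63, 1 of the 5, averaged 353.5, 405.6 and 371.4 CPM in Detergent B, Detergent A and PBS libraries. Its log2 fold change against PBS was -0.07 ± 0.14 for Detergent B and 0.13 ± 0.14 for Detergent A. The part of the keratinocyte sum in the result was not tested. Neutrophil genes summed to between 49.4 and 357.0 CPM in Detergent B, 24.9 and 256.6 CPM in Detergent A and 29.7 and 79.8 CPM in PBS libraries, with 0 of 6 genes called and 0 at zero in any group, and their part was likewise not tested.

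**Figure D3:**
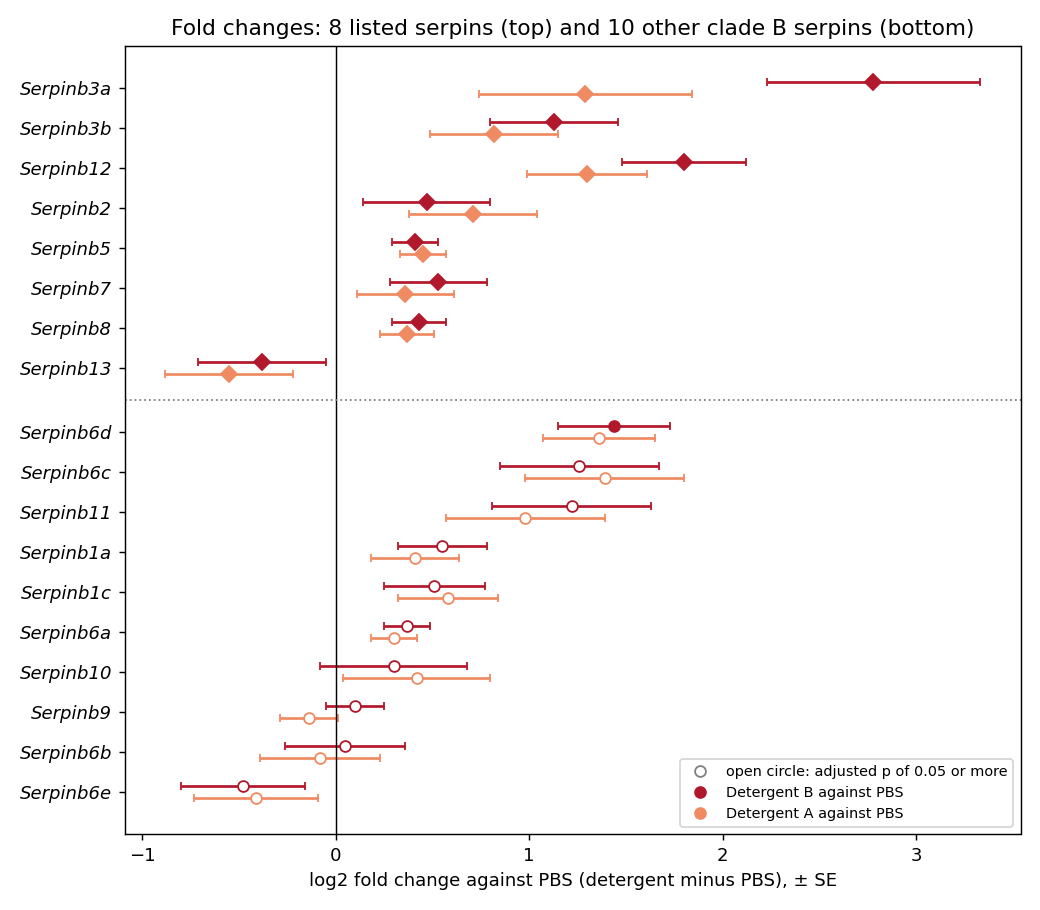
Log2 fold change (horizontal axis, detergent minus PBS) with its standard error for the 8 serpins (top) and the 10 other clade B serpins tested (bottom), for Detergent B and Detergent A; diamonds mark the 8 serpins, and of the other serpins filled circles have an adjusted p under 0.05. Serpinb3a has the largest value, 2.78 for Detergent B, and Serpinb13 lies below 0 for both detergents.

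The other clade B serpins of the mouse, most of which lie in a second cluster on chromosome 13, were taken from a list of 19 genes, of which 17 are in the files and 10 were tested. For Detergent B against PBS 1 of the 10 rose, 0 fell and 9 did not pass, with a median log2 fold change of 0.44. Of all genes 1.97% were called higher and 1.08% lower. The gene that rose was Serpinb6d, with 9.47, 27.0 and 42.1 CPM as lowest, median and highest in Detergent B libraries, 17.8, 23.0 and 41.3 CPM in Detergent A libraries, and 6.76, 9.16 and 15.7 CPM in PBS libraries. Detergent B replicate 3 was within the PBS range, and the other 5 Detergent B libraries and all 6 Detergent A libraries were above it. The log2 fold change was 1.44 ± 0.29 for Detergent B (edgeR adjusted p 0.0178) and 1.36 ± 0.29 for Detergent A (adjusted p 0.0548), each against PBS. The call for Detergent B was lost without PBS replicate 2, 3 or 5 or Detergent B replicate 5, with log2 fold changes of 1.27 to 1.62 and adjusted p up to 0.06201 over the 12 fits, and with the hair shaft covariate, where the log2 fold change was 1.07 ± 0.32. A call for Detergent A appeared without PBS replicate 6 or Detergent A replicate 2 or 6, with a smallest adjusted p of 0.01747. The number of these genes called for Detergent B was 4 without PBS replicate 6 and 3 without Detergent B replicate 3. In these fits 1157 and 612 genes of the whole table were called higher.

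For Detergent A against PBS 0 of the 10 passed in either direction by edgeR, and the median log2 fold change was 0.42. Of the 10, 5 had an unadjusted p under 0.05, as did 3158 of the 16836 genes tested. The number of the 10 called was 2 without PBS replicate 6 or Detergent A replicate 2 or 6, and 1 without Detergent B replicate 3 or 4. In the order given, 565, 504, 475, 12 and 101 genes of the whole table were called higher in these fits. The 2 with the smallest p were Serpinb6d, given above, and Serpinb6c. Serpinb6c had 14.2, 34.3 and 51.3 CPM as lowest, median and highest in Detergent B libraries, 9.71, 34.4 and 68.9 CPM in Detergent A libraries, and 6.71, 12.7 and 21.2 CPM in PBS libraries. Its log2 fold change was 1.39 ± 0.41 for Detergent A (adjusted p 0.09867) and 1.26 ± 0.41 for Detergent B (adjusted p 0.08546), with overlapping ranges in both comparisons. It passed for Detergent A without replicate 2 or 6 of that group and for Detergent B without replicate 3 of that group, with smallest adjusted p of 0.02749 and 0.04667.

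**Figure D4:**
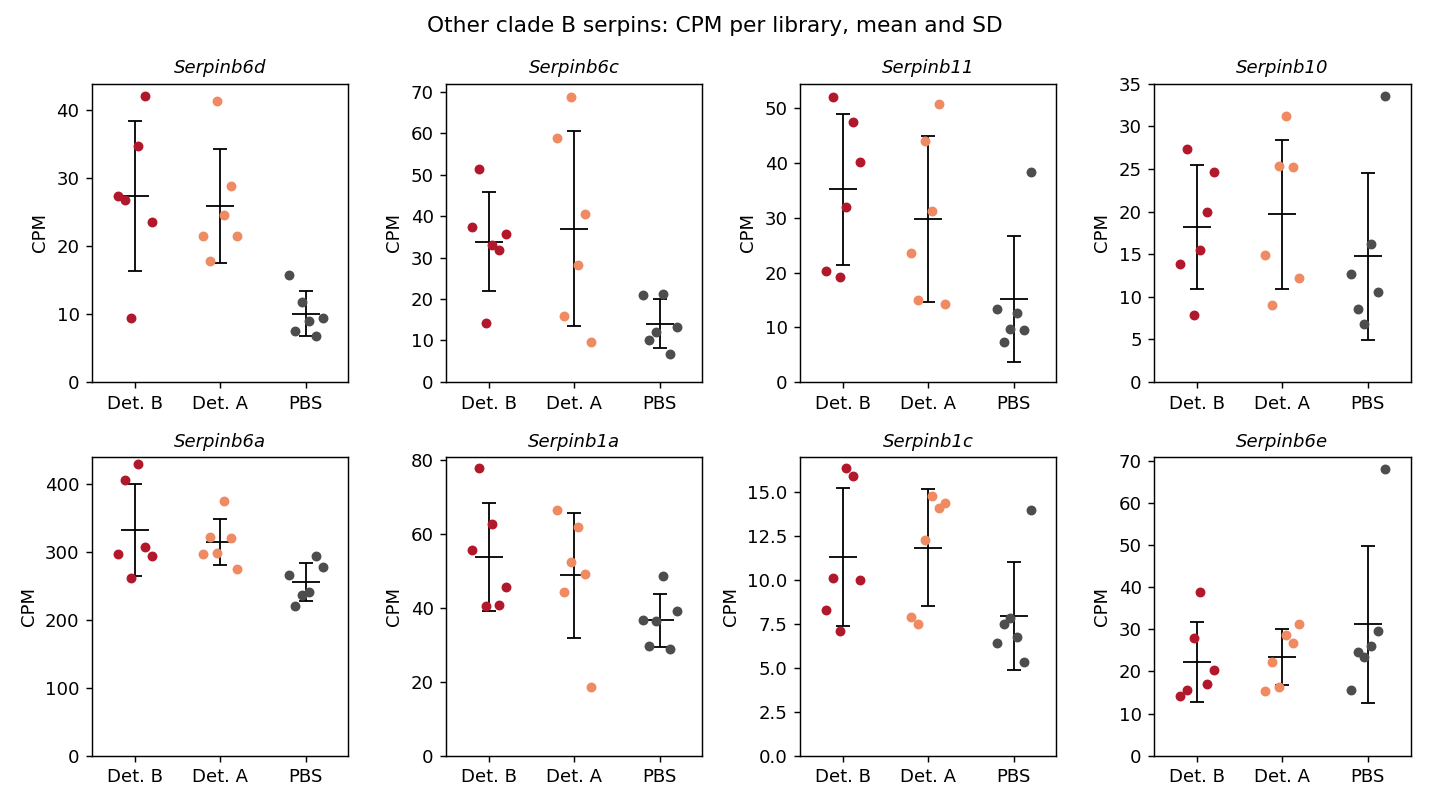
CPM of 8 of the 10 other clade B serpins tested, in each of the 18 libraries (points), with Detergent B, Detergent A and PBS from left to right, the mean (horizontal mark) and 1 SD (bar) of 6 libraries. All 6 Detergent A libraries and 5 of 6 Detergent B libraries exceed the PBS libraries for Serpinb6d, and PBS replicate 6 is the highest PBS point of Serpinb11, Serpinb10, Serpinb1c and Serpinb6e.

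Within 500000 bases of the 10 genes, or among them, the annotation holds 16 further genes, of which 6 were tested: Phlpp1, Bcl2, Kdsr, Vps4b, Serpinb11 and Serpinb10. None was called for either detergent by edgeR, and the median log2 fold change was 0.26 for Detergent B and 0.24 for Detergent A. An unadjusted p under 0.05 was found for 3 of the 6 with each detergent. Over all 16836 genes tested, 3931 had such a p for Detergent B and 3158 for Detergent A. Vps4b, an ATPase of the ESCRT machinery that sorts membrane proteins, had the smallest p with both detergents, at a log2 fold change of 0.23 ± 0.07 for each (adjusted p 0.0744 for Detergent B and 0.1071 for Detergent A). Serpinb11, which sits between Serpinb3c and Serpinb7, averaged 35.2 ± 13.8 CPM in Detergent B, 29.8 ± 15.2 CPM in Detergent A and 15.1 ± 11.6 CPM in PBS libraries (SD, n = 6 each). PBS replicate 6 had 38.3 CPM of it and the other 5 PBS libraries at most 13.4 CPM. Its log2 fold change was 1.22 ± 0.41 for Detergent B (adjusted p 0.09189) and 0.98 ± 0.41 for Detergent A (adjusted p 0.2063), and without PBS replicate 6 it was 1.74 ± 0.36 and 1.5 ± 0.35, when it was called with each detergent. Vps4b was called for Detergent B without PBS replicate 6 (smallest adjusted p 0.04528) and for Detergent A without Detergent A replicate 2 or 6 (smallest adjusted p 0.03268).

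**Figure D5:**
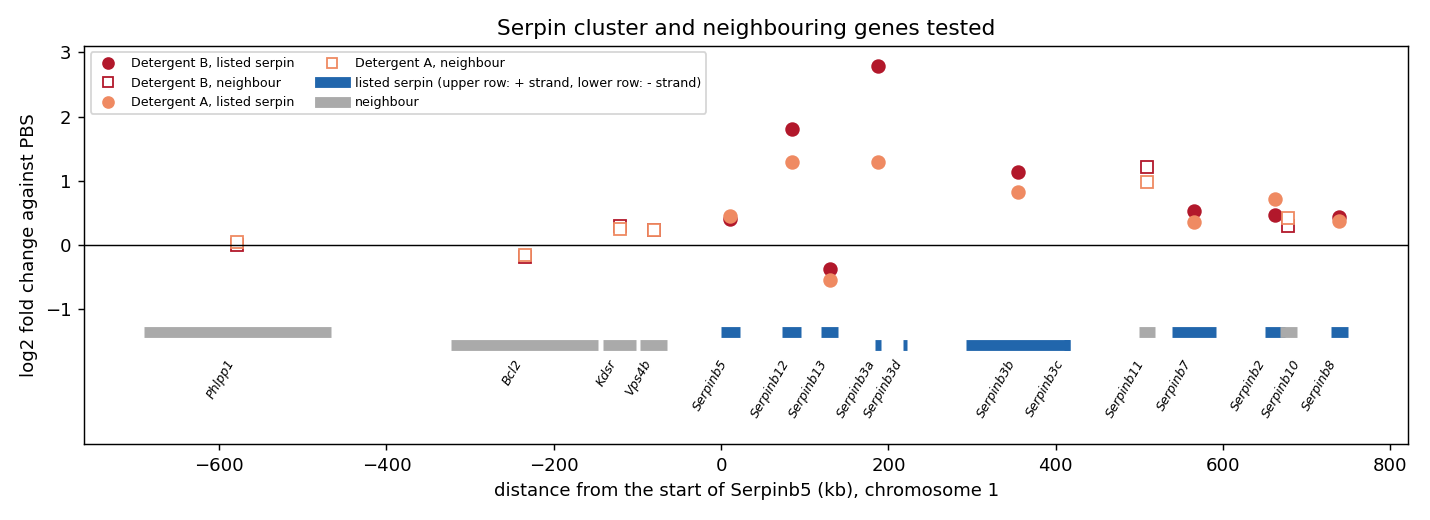
Log2 fold change against PBS (vertical axis) of the 8 serpins that passed the filter (filled circles) and their 6 tested neighbours (open squares), for Detergent B and Detergent A, at the midpoint of each gene in kb from the start of Serpinb5; bars under the points show the extent of each gene by strand. Serpinb13, at -0.38 for Detergent B, lies between Serpinb12, at 1.80, and Serpinb3a, at 2.78.

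Proteases that clade B serpins may meet in skin, both possible targets and others, were taken from a list of 20 genes, of which 18 were tested. For Detergent B against PBS 4 rose, 0 fell and 14 did not pass, beside 1.97% of all genes called higher and 1.08% called lower. The 4 were the stratum corneum kallikreins Klk5, Klk7 and Klk8, which cut the junctions that hold cornified cells together, and the cysteine protease cathepsin H (Ctsh). Klk8 averaged 285.4 ± 40.4 CPM in Detergent B and 158.3 ± 12.3 CPM in PBS libraries (SD, n = 6 each), a log2 fold change of 0.85 ± 0.14 (adjusted p 0.009783). Klk7 averaged 1690 ± 161.4 CPM in Detergent B and 1048 ± 149.6 CPM in PBS libraries, a log2 fold change of 0.69 ± 0.15 (adjusted p 0.02918). Klk5 had a log2 fold change of 0.82 ± 0.18 (adjusted p 0.02468) and Ctsh of 0.50 ± 0.11 (adjusted p 0.02773).

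For Klk8, Klk7 and Ctsh all 6 Detergent B libraries were above all 6 PBS libraries, and for Klk5 5 of 6 were. All 6 were also above for cathepsin L (Ctsl), which was not called (edgeR adjusted p 0.05222). Such a separation was thus found for 4 of the 18 proteases tested, beside 1.72% of all genes. Of the 12 fits that left out 1 Detergent B or PBS library, Klk8 was called in 12, Ctsh in 6, Klk5 in 5 and Klk7 in 4. Adjusted p reached at most 0.08771 for these 4 called genes. The number of proteases called was 9 without PBS replicate 6, 2 without PBS replicate 1 or Detergent B replicate 2, 4 or 6, and 1 without PBS replicate 2, 3 or 5 or Detergent B replicate 5. Genes called higher in the whole table were 1157 without PBS replicate 6, 78 to 145 in the fits with 2 proteases, and 24 to 77 in those with 1. With the hair shaft covariate the number of proteases called was 0, and the log2 fold change of Klk8 was then 0.71 ± 0.14. For Detergent A against PBS 0 of the 18 passed by edgeR. Of the 18, 6 had an unadjusted p under 0.05, beside 3158 of the 16836 genes tested. The 2 with the smallest p were Klk7, with a log2 fold change of 0.64 ± 0.15 (adjusted p 0.06097), and Klk8, with 0.55 ± 0.14 (adjusted p 0.06158), and both were called without PBS replicate 6 or Detergent A replicate 2 or 6, with smallest adjusted p of 0.01821 and 0.01747.

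Cytokines, receptors and transcription factors known to act on serpin genes or on keratinocyte maturation were taken from a list of 22 genes, of which 17 were tested. None passed for either detergent by edgeR. For Detergent B 7 had an unadjusted p under 0.05, beside 3931 of the 16836 genes tested. For Detergent A 5 did, beside 3158. For Detergent B the 2 with the smallest p were the AP-1 subunits Fos, at 19.5 CPM in Detergent B and 55.0 CPM in PBS libraries (log2 fold change -1.49 ± 0.43, adjusted p 0.05967), and Jun, at 70.0 CPM in Detergent B and 95.4 CPM in PBS libraries (-0.45 ± 0.14, adjusted p 0.0788). For Detergent A they were Jun (-0.47 ± 0.14, adjusted p 0.09991) and the interleukin 13 receptor chain Il13ra1 (0.52 ± 0.16, adjusted p 0.1184). Fos was called lower for Detergent B without PBS replicate 6 or Detergent B replicate 1, Jun without Detergent B replicate 1, and Il13ra1 higher for Detergent A without Detergent A replicate 2 or 6, with smallest adjusted p of 0.02787, 0.02658 and 0.02839. The number of regulators called for Detergent B, in either direction, was 3 without Detergent B replicate 1 and 2 without PBS replicate 6. Over the whole table, 538 genes were called higher and 353 lower in the first of these fits. In the second, 1157 were called higher and 731 lower.

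Among themselves the 8 genes varied together to different degrees. Over the 18 libraries, Pearson's r of log2 CPM was 0.89 between Serpinb3a and Serpinb3b, 0.88 between Serpinb7 and Serpinb8 and 0.87 between Serpinb3b and Serpinb12. After centring on group means it was 0.83, 0.86 and 0.76 for the same 3 pairs. Serpinb13 had r between -0.32 and 0.38 with the other 7, and after centring between -0.20 with Serpinb2 and 0.68 with Serpinb7. The non-member genes most like the mean of the 8, after each was scaled to its own mean and SD, were Krtdap (r = 0.99), a gene of keratinocyte differentiation, Htatip2, the desmosome gene Perp and Rabgef1, an activator of Rab5 (0.97 each), and Dynlt3, Spink5, Psme2 and Dusp22 (0.96 each), out of 14774 genes compared. Spink5 encodes LEKTI, the secreted inhibitor of the stratum corneum kallikreins. With group means removed the 8 most alike were Krtdap (0.97), Ptdss1 and Plpp2 (0.96 each), and Dynlt3, Htatip2, Perp, Pycard and Fam57a (0.95 each). These r values are descriptions over 18 libraries that share their depth and their content of epidermis and hair follicle between genes.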

How the data were processed

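RNA sequencing of 18 mouse skin libraries was analysed from the whole-number counts of reads per gene that the authors deposited, which were not normalised. STAR, featureCounts and the build GRCm38.p5 are named, per the submitters' processing notes. Not given in the sources used here are their versions, the strand setting and how multiply mapping reads were counted. Of 41605 gene IDs, 41519 matched GENCODE M21.

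Testing used the edgeR package, version 4.0.16 under R 4.3.3 (TMM scaling, default filter by group, robust quasi-likelihood fit with group as the only term over all 18 libraries, 15 residual degrees of freedom). P-values were adjusted by Benjamini-Hochberg over the 16836 genes tested. The SE is the log2 fold change divided by the square root of F. CPM uses the scaled library sizes, and log2 CPM a prior count of 2. The chi-square per gene between any pair of libraries of a group was at least 9.39, so none agreed within sampling noise. The fit was also run on simulated counts. These were drawn independently for each gene, without variation shared between genes, so they cannot show how calls depend on single libraries. Promoters are from RefSeq, and identities are from global alignments (Biopython 1.88) of coding sequences in the GENCODE annotation and of promoters.

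The members and lists were chosen with earlier results of these data known. All 10 members were named, with the 8 genes most like them by each measure and, from each list, the genes called (at most 4), else the 2 with the smallest p. Alternatives were DESeq2 1.42.0, voomWithQualityWeights (limma 3.58.1), other scaling and filters, a fit of the 12 libraries compared, a replicate block, a hair shaft covariate, a non-robust fit, a summed Serpinb3 group, a prior count of 0.5 and leaving out each library.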

Additional observations from a re-analysis of the deposited data

Results flagged for a closer look

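Dixon's criterion, a gap over 0.625 of the group's range, was applied to 54 groups of 6 libraries over 18 clade B serpins. In 7 of them 1 library lay far from the other 5. The rate of 1 in 20 groups for this criterion assumes normal values and independent groups. These groups reuse the same libraries over genes that vary together, so the count is not set against that rate. All 7 were PBS replicate 6. It had 166.9 CPM of Serpinb7, where the other PBS libraries had 71.3 to 102.1, and 188.9 CPM of Serpinb8, where they had 110.5 to 125.1. It had 3.97 CPM of Serpinb13 against 1.72 to 2.32 in the others, 14.0 CPM of Serpinb1c against 5.32 to 7.81, and 68.0 CPM of Serpinb6e against 15.5 to 29.5. For Serpinb10 and Serpinb11 it had 33.6 and 38.3 CPM, where the others had 6.78 to 16.2 and 7.27 to 13.4. The same library had the lowest hair shaft sum of its group, 152.5 CPM, and its part in these values was not tested.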

How the results depend on the processing

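All 570 fold changes of the 8 serpins under the alternatives differed from those reported by less than 1 SD between single libraries of a group. No called value turned sign. This bar is wide and does not show that the fold changes were stable. With the hair shaft covariate that of Serpinb7 for Detergent B fell from 0.53 to 0.17 and that of Serpinb8 from 0.43 to 0.20, both within it. The counts of calls depended on the tool and on single libraries. With DESeq2, calls for Detergent B against PBS were 4 of the 10 serpins it fitted, 4 of 13 other clade B serpins, 2 of 12 neighbours and 2 of 21 regulators, and for Detergent A against PBS 2, 2, 1 and 2 of these lists, with 4 of 20 proteases. Over all 28046 genes it fitted, DESeq2 called 829 higher and 562 lower for Detergent B and 470 higher and 327 lower for Detergent A. With voomWithQualityWeights they were 6, 6, 3 and 9 with 10 proteases for Detergent B and 4, 5, 3 and 5 with 7 proteases for Detergent A, in a fit that called 2563 of 16836 genes higher and 2511 lower for Detergent B and 1892 higher and 2022 lower for Detergent A. With library totals only, 1 serpin, 1 other clade B serpin, 1 protease and 1 regulator were called for Detergent A and 2 regulators for Detergent B. Over the whole table that fit called 65 genes higher and 155 lower for Detergent A, and 271 higher and 690 lower for Detergent B. The stricter filter of 1 CPM in 6 libraries called 1 other clade B serpin for Detergent A, beside 41 genes higher and 34 lower in the whole table. The fit of the 12 libraries compared called 1 other clade B serpin for Detergent A, and 2 with 1 regulator for Detergent B. It called 2 genes higher and 22 lower for Detergent A, and 505 higher and 232 lower for Detergent B. With the hair shaft covariate 0 serpins, 0 other clade B serpins and 0 proteases were called for Detergent B, where 2 genes in all were called higher and 3 lower. The cause of these shifts was not tested.

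Leaving out each library in turn gave 1 to 6 serpins for Detergent B, 0 to 4 for Detergent A and 0 to 0 between the detergents, while the genes called higher in the whole table ranged from 24 to 1157 for Detergent B and from 0 to 565 for Detergent A. For the other clade B serpins the counts were 0 to 4 for Detergent B and 0 to 2 for Detergent A, for the neighbours 0 to 3 and 0 to 1, for the proteases 1 to 9 and 0 to 4, and for the regulators 0 to 3 and 0 to 2. The counts for the lists take both directions together. Genes called lower in the whole table ranged from 3 to 731 for Detergent B and from 0 to 343 for Detergent A.

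Replicate numbers did not pair the libraries: same-numbered libraries had deviations from their group means that correlated at -0.35 to 0.55 (median 0.02, 18 pairs), and others at -0.65 to 0.67 (median -0.06, 90 pairs). With a replicate block, 2 serpins, 1 other clade B serpin and 4 proteases were called for Detergent B and 0 of each for Detergent A, as without it, and Serpinb3a had a log2 fold change of 2.87. At this depth Serpinb3c and Serpinb3d were below what the filter allows in all groups.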
